A study of Mus musculus with 7 samples.

Results

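Axl, Mertk and Tyro3 are the receptors, and Gas6, Pros1 and Mfge8 the bridging molecules, through which phagocytes take up apoptotic cells, and their transcripts were followed here in microglia taken from inside and outside neuronal grafts. The 6 genes were found by name among the 55341 gene names with deposited counts, and comprise 3 receptors and 3 bridging molecules. The hosts were C57BL/6 mice of the 5xFAD genotype, which carry human APP and PS1 transgenes under the neuron-specific Thy1 promoter and deposit Aβ. Embryonic cortical cells of wild-type (WT) mice were injected into the host cortex, and 4 weeks later CD11b+CD45low microglia were sorted by FACS either from the dissected graft (inside, 3 libraries) or from small pieces of cortex close to it (outside, 4 libraries). The labels give an age of 14 weeks for all 7 libraries. Both groups came from transgenic, injected animals, and no library from WT or uninjected cortex was used here. Nothing in the labels shows that the libraries came from separate mice, so P values measure the spread between these libraries, which may in part be technical.

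The TAM receptors (Tyro3, Axl and Mertk) are receptor tyrosine kinases that do not bind the phosphatidylserine of dying cells directly. The vitamin K-dependent proteins Gas6 and protein S (Pros1) bind phosphatidylserine with their carboxylated domains and the receptors with their other end. Gas6 binds all of the receptors, whereas Pros1 binds Mertk and Tyro3 and is not a ligand of Axl. Mfge8 joins phosphatidylserine to integrins. Mertk is a well-known marker of resting microglia and tissue macrophages, and Axl is known to be raised in microglia in inflammation and around amyloid plaques.

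The libraries held 18644807 (outside graft 1) to 25882122 (inside graft 1) counted reads, with 0.298% to 0.462% of them on mitochondrial genes. Outside graft 1 stood apart on the leading principal component (37.2% of the variance), where it lay at 117. The other outside libraries lay at 5.34 to 17.5 and the inside libraries at -69.8 to -27.7, without overlap of the groups. Outside graft 1 also had the lowest quality weight (0.448, against up to 1.76 in outside graft 4). The labelled cell type was checked with 12 microglia markers such as P2ry12 and Tmem119, whose summed level was 51985 to 60206 CPM (reads of a gene relative to the normalized library total) inside and 60408 to 66638 CPM outside the graft. Markers of neurons (4.16 to 10.5 CPM over all libraries), vascular cells (30.9 to 62.2) and oligodendrocytes (155 to 165) summed to far less. So did those of astrocytes, at 248.8 to 299.5 CPM inside and 327.5 to 351.9 CPM outside, without overlap and with Gja1 at 0 in all libraries. Of the 6 astrocyte genes tested, 3 had a log2 fold change above 0 and 3 below, with a median of 0.28. Complete separation with the inside libraries lower was found in 1 of these 6, against 5.02% of all tested genes. Monocyte and macrophage markers are given beside the results they touch. The 8 proliferation genes summed to 84.4 to 137 CPM inside and 7.93 to 37.4 CPM outside. All 8 had a log2 fold change above 0 (median 2.91), against 49.2% of all tested genes. All 8 were also higher in every inside library than in any outside library, against 5.65% of all tested genes. Of the 8, 2 (Top2a and Birc5) rose by voomWithQualityWeights and 0 by edgeR. Over all tested genes, 0.433% rose by voomWithQualityWeights and 0.0983% by edgeR.

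The genes of both main receptors lie apart in the genome (GRCm38.p6, GENCODE M21). Axl (ENSMUSG00000002602.16) occupies chr7:25757273-25788705 on the minus strand, with 19 merged exons of 5033 bases and no overlapping gene. Mertk (ENSMUSG00000014361.5) occupies chr2:128698956-128802894 on the plus strand, with 19 merged exons of 4336 bases. The genes Gm14011 and Gm23172 overlap Mertk but share 0 exon bases with it. The 250 bases before the RefSeq start of each are shown because these 2 genes behaved differently, at chr7:25788734-25788983 (minus strand) for Axl and chr2:128698665-128698914 (plus strand) for Mertk, each 5′ to 3′ on the strand of its gene, with capitals marking the GC box GGGCGG on either strand.
Axl: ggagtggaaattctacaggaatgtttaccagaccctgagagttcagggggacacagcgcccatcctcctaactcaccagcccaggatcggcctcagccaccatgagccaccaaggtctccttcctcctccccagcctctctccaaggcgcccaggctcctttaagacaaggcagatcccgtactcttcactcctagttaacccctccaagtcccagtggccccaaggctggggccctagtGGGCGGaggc
Mertk: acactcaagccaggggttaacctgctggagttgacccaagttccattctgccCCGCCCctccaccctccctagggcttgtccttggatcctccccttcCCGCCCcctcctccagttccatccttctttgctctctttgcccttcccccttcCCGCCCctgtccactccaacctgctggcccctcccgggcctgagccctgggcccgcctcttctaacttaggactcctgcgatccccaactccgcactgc

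Both windows were rich in G and C, at 60.0% for Axl and 63.6% for Mertk, where the median of all 32851 mouse windows of that length was 52.4%. The Axl window held 1 GC box, whose first base lay 10 bases before the start, and the Mertk window held 3, at 198, 152 and 99 bases, against 32.7% of all windows with at least 1. GAGGAAG, a core recognised by the macrophage factor PU.1, occurred 1 time in the Axl window, 131 bases before the start, and 0 times in that of Mertk, and 10.6% of all windows held it. AGGTCA, TTCNNNGAA and TGANTCA, letters read by nuclear receptors, STAT proteins and AP-1, occurred 0 times in both, against 14.0%, 7.02% and 6.75% of all windows, and so did the interferon-stimulated response element, which 2.98% of all windows held. The motifs were searched on both strands, and the matches in these windows did not overlap each other. A match is a description of the letters, and no match says only that these letters are not in this window.

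Axl was the member whose transcript rose inside the graft. Its level was 279, 508 and 237 CPM in inside graft 1, 2 and 3, from 7105, 11455 and 5627 reads. Outside the graft it was 67.1, 78.9, 34.2 and 80.2 CPM in replicates 1 to 4, from 1258, 1773, 850 and 1980 reads. The groups did not overlap, with inside graft 2 the highest and outside graft 3 the lowest of all. The means were 341 ± 146 CPM (SD, n = 3) inside and 65.1 ± 21.4 CPM (SD, n = 4) outside, a log2 fold change of 2.39 (SE 0.32, 95% interval 1.68 to 3.11, adjusted P = 0.0357, edgeR quasi-likelihood test), or 5.25-fold. The study's own kind of test, limma's voomWithQualityWeights, gave 2.48 (SE 0.33, 95% interval 1.76 to 3.19, adjusted P = 0.0172). In bulk samples, a different number of cells with a transcript and a different amount per cell cannot be told apart.

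That 1 of the 5 members tested was called by edgeR at an adjusted P below 0.05 is to be read against 15 of 15257 genes, or 0.0983%, and all 15 of those genes were higher inside the graft. With voomWithQualityWeights 75 genes (0.492%) were called, 66 (0.433%) higher and 9 (0.059%) lower inside, again with 1 member, Axl, among them. At the threshold of 0.01 used in the study, edgeR called 0 genes (0%), where 1457 (9.55%) had an unadjusted P below 0.05, and voomWithQualityWeights called 3 (0.0197%), none of them a member. Axl ranked 8 by P value in edgeR and 9 in voomWithQualityWeights, and 283 tested genes had a larger edgeR log2 fold change. Complete separation of the groups with the inside libraries higher, as in Axl, was found in 5.65% of tested genes, and with the inside libraries lower in 5.02%. The call of Axl did not hold with every library left out: the edgeR adjusted P was 0.0645 and 0.0905 when inside graft 1 or 3 was removed and 0.0597, 0.0574 and 0.0908 when outside graft 1, 2 or 4 was, while the log2 fold change stayed between 1.99 and 2.60.

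**Figure D1:**
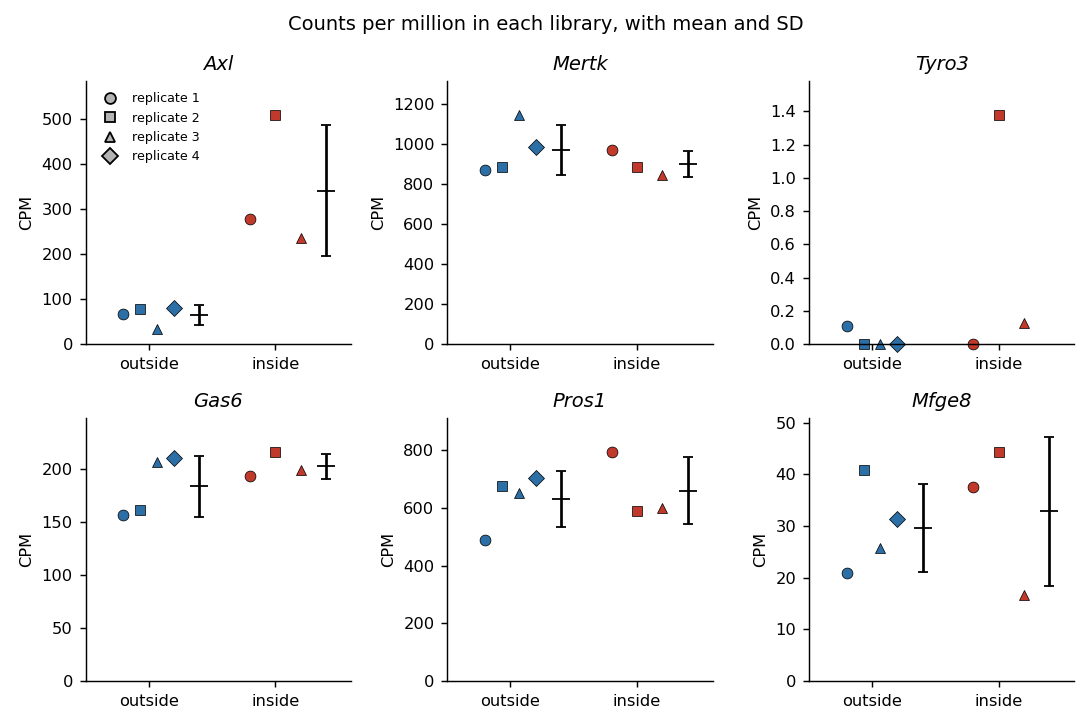
CPM (linear axes from 0) of the 6 members in each of the 4 outside (blue) and 3 inside (red) libraries, with marker shapes giving the replicate number and the horizontal tick and bar the mean and SD, left out for Tyro3. The inside Axl libraries, at 237 to 508 CPM, lie above all outside libraries, at 34.2 to 80.2 CPM, whereas the groups overlap for the other members.

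Mertk, the most abundant of the 3 TAM receptors in these cells, did not pass the test. Inside graft 1, 2 and 3 held 971, 885 and 848 CPM, from 24741, 19952 and 20120 reads. Outside graft 1 to 4 held 874, 884, 1145 and 986 CPM, from 16373, 19877, 28450 and 24341 reads. The groups overlapped, and outside graft 3, the library with least Axl, held the most Mertk. With means of 901 ± 63.3 CPM (SD, n = 3) inside and 972 ± 125.7 CPM (SD, n = 4) outside, the log2 fold change was -0.11 (SE 0.12, 95% interval -0.37 to 0.16, adjusted P = 0.859, edgeR). The interval corresponds to a level inside the graft of 0.772 to 1.11 times that outside, so a difference of the size seen for Axl lies beyond it. The voomWithQualityWeights value was -0.15 (adjusted P = 0.646).

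Tyro3 (ENSMUSG00000027298.17, chr2:119797733-119818104, plus strand), the remaining TAM receptor, was near the limit of detection. It had 0, 31 and 3 reads in inside graft 1, 2 and 3 and 2, 0, 0 and 0 reads in outside graft 1 to 4. These counts failed the filter on low counts, so Tyro3 was not tested, and with all outside libraries at or under 3 reads and the inside reads nearly all from 1 library no fold is given.

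Setting Axl against Mertk within each library leaves library size and normalization out of the comparison. In TPM (counts per kilobase of exon, scaled to the same sum in each library), Axl made up 19.8%, 33.1% and 19.4% of the summed level of the 3 receptors in inside graft 1, 2 and 3. Outside the graft its share was 6.21%, 7.14%, 2.51% and 6.55% in replicates 1 to 4. Mertk thus exceeded Axl in every library, by 2.02 to 4.15 times inside and by 13.0 to 38.9 times outside, with no overlap. The summed receptor level did overlap, at 735 to 852 TPM inside and 651 to 899 TPM outside. On the log2 scale the ratio of Axl to Mertk was -1.69 ± 0.59 (SD, n = 3) inside and -4.18 ± 0.74 (SD, n = 4) outside, a difference of 2.49 or 5.61-fold, with a two-sided exact permutation P = 0.0571. That is the smallest P that the 35 splits of 3 against 4 libraries allow, so this test could not pass 0.05. Outside graft 3, with a ratio of -5.28, was far from the other outside libraries (-3.92 to -3.70), and without it the difference was 2.12.

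**Figure D2:**
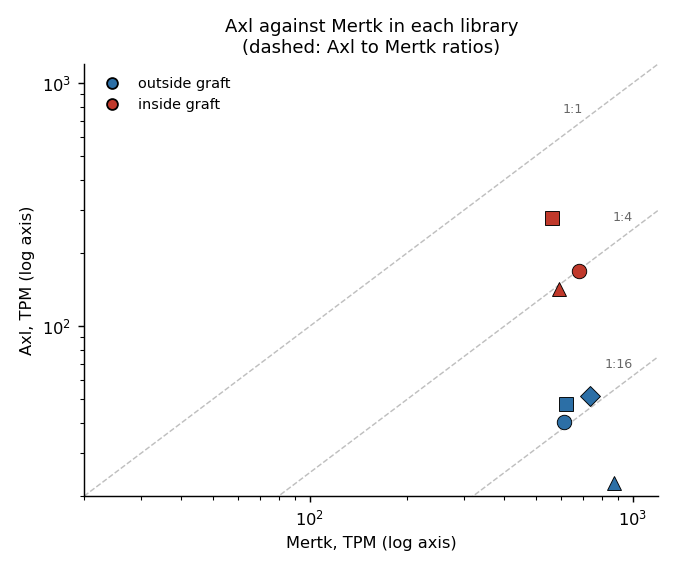
Axl against Mertk in TPM, on log axes, with 1 point for each outside (blue) or inside (red) library, shapes giving the replicate number as in the plot of CPM, and dashed lines at Axl to Mertk ratios of 1:1, 1:4 and 1:16. Inside and outside libraries are apart along the Axl axis and overlap along the Mertk axis.

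Transcripts of the bridging molecules were present in microglia of both groups at unequal levels, and none passed the test. Gas6 (ENSMUSG00000031451.6, chr8:13465374-13494490, minus strand) is the ligand shared by Axl and Mertk. It was at 193, 216 and 199 CPM inside and at 157, 161, 206 and 210 CPM outside the graft. The inside libraries were close to each other and lay within or just above the outside range. The means of 202 ± 11.8 CPM (SD, n = 3) and 183 ± 28.5 CPM (SD, n = 4) gave a log2 fold change of 0.14 (SE 0.13, 95% interval -0.16 to 0.44, adjusted P = 0.829, edgeR). Gas6 shares 34 exon bases (1.33%) with Tmem255b, which had 0 to 17 reads per library.

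Pros1 (ENSMUSG00000022912.8, chr16:62854307-62929346, plus strand), the ligand of Mertk and not of Axl, was at 793, 588 and 599 CPM inside and at 488, 675, 651 and 705 CPM outside. Inside graft 1 was the highest and outside graft 1 the lowest library, and the others were mixed. The means were 660.0 ± 115.6 CPM (SD, n = 3) and 629.7 ± 97.0 CPM (SD, n = 4), with a log2 fold change of 0.068 (SE 0.16, 95% interval -0.28 to 0.41, adjusted P = 0.947, edgeR). Its sign turned without inside graft 1 (-0.083) or outside graft 1 (-0.036).

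Mfge8 (ENSMUSG00000030605.15, chr7:79133768-79149060, minus strand) was the lowest of the bridging molecules. Its libraries held 37.5, 44.3 and 16.7 CPM inside and 20.9, 40.7, 25.6 and 31.3 CPM outside, so that both the highest and the lowest library were inside. The log2 fold change was 0.15 (SE 0.33, 95% interval -0.58 to 0.88, adjusted P = 0.945, edgeR) and was -0.13 without inside graft 2. This interval, from 0.667 to 1.83 times, was the widest of the 5 members on the log2 scale, and smaller changes of Mfge8 were not detectable at this spread.

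**Figure D3:**
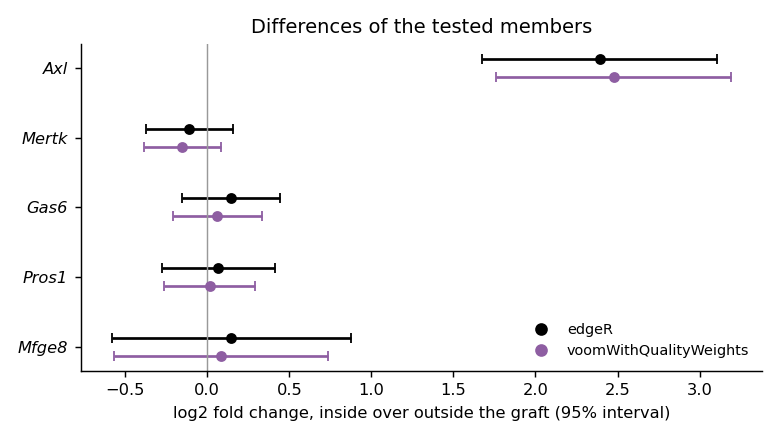
Log2 fold change (inside relative to outside) of the 5 members tested, with 95% intervals as horizontal bars, from edgeR (black) and voomWithQualityWeights (purple). The interval of Axl lies above 0, at 1.68 to 3.11 in edgeR, and those of Mertk, Gas6, Pros1 and Mfge8 include 0.

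The balance of the TAM ligands did not shift detectably either. Pros1 exceeded Gas6 in every library, by 2.56, 1.70 and 1.88 times in TPM inside and 1.94, 2.62, 1.97 and 2.09 times outside. The log2 ratio differed by -0.087 between the groups, with an exact two-sided permutation P = 0.629.

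Per length, the order of the mean levels was the same inside and outside: Mertk, Pros1, Gas6, Axl, Mfge8 and Tyro3. Outside, these were 711 ± 124.5 TPM for Mertk, 488 ± 87.4 for Pros1, 228 ± 45.5 for Gas6, 40.6 ± 12.9 for Axl and 19.9 ± 5.48 for Mfge8 (SD, n = 4). Inside, they were 612 ± 63.5, 477 ± 102.5, 233 ± 2.71, 196 ± 71.4 and 20.3 ± 8.33 TPM (SD, n = 3). What changed was the place of Axl between its neighbours. Gas6 was 5.63 times as high as Axl outside, with no overlap, and 1.19 times as high inside, where Axl (143 to 277 TPM) overlapped Gas6 (231 to 236 TPM) and exceeded it in 1 of 3 libraries. Axl was 2.04 times as high as Mfge8 outside, with overlapping ranges, and 9.65 times as high inside, with none. Mertk and Pros1 overlapped inside but not outside. Axl thus stood above 76.5% of tested genes outside and above 96.2% inside, and Mertk above 99.2% and 99.0%.

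The other genes of apoptotic-cell uptake were read from 7 lists with 80 genes, of which 65 were tested and 15 had too few counts (64 or fewer over all libraries). Of the 65, 2 rose and 0 fell in edgeR and 2 rose and 0 fell in voomWithQualityWeights, 3 different genes in all (Lgals3, C3 and Cd300lf). Over all tested genes, 0.0983% rose in edgeR and 0.433% in voomWithQualityWeights. A log2 fold change above 0 was found in 35 of 65, against 49.2% of all tested genes. The groups were completely separated with the inside libraries higher in 8 of the 65 and lower in 3, against 5.65% and 5.02% of all tested genes.

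Among 18 other apoptotic-cell receptors, 13 were tested, with a median log2 fold change of 0.14 where that of all tested genes was -0.0064. The most abundant were the integrin subunit Itgb5, at 2719 ± 405.1 CPM inside and 2466 ± 193.2 CPM outside, and Lrp1, a large scavenger receptor, at 1273 ± 141 and 1397 ± 135.5 CPM (SD, n = 3 and 4). Their log2 fold changes were 0.14 and -0.13, with edgeR adjusted P values of 0.791 and 0.806. Cd300lf, a phosphatidylserine-binding receptor, was at 18.6, 35.2 and 25.8 CPM inside and 6.46, 9.52, 6.84 and 9.19 CPM outside, without overlap. It rose by voomWithQualityWeights (adjusted P = 0.0374) and missed the threshold in edgeR (log2 fold change 1.73, SE 0.27, adjusted P = 0.0546). Cd36, the scavenger receptor of the list with the largest change, ranged from 0.864 to 21.2 CPM inside and from 0.320 to 3.89 CPM outside and overlapped (log2 fold change 2.78, edgeR adjusted P = 0.363). Timd4, Havcr1, Stab2, Adgrb1 and Megf10 had too few counts.

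Among 12 other bridging molecules, 8 were tested, with a median log2 fold change of 0.20. The complement chains C1qb and C1qc were the most abundant, with log2 fold changes of 0.14 (edgeR adjusted P = 0.849) and -0.00021 (edgeR adjusted P = 1.0). Lgals3, which encodes galectin-3, a ligand of Mertk, was at 24.1, 35.6 and 33.0 CPM inside and 6.88, 5.03, 4.06 and 9.80 CPM outside. All inside libraries were higher, and Lgals3 rose in both tests (log2 fold change 2.26, SE 0.31, edgeR adjusted P = 0.0368, voomWithQualityWeights adjusted P = 0.0195). C3, the central complement protein, was at 99.6, 26.8 and 195 CPM inside and 9.02, 1.82, 4.18 and 2.39 CPM outside. It rose in edgeR (log2 fold change 4.64, SE 0.68, adjusted P = 0.0485) and not in voomWithQualityWeights (adjusted P = 0.0546). Anxa1, annexin A1, which binds phosphatidylserine, was at 216, 11.6 and 367 CPM inside and 0.640, 0, 10.98 and 1.78 CPM outside, and did not pass the edgeR test with this spread (log2 fold change 5.85, adjusted P = 0.106).

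The order of the inside libraries differed between these genes. Axl, Lgals3 and Cd300lf were highest in inside graft 2, whereas C3 and Anxa1 had their lowest inside level there. The same libraries differed in markers of other cells. The 8 monocyte genes, such as Ly6c2 and Ccr2, summed to 734, 84.1 and 1515 CPM in inside graft 1, 2 and 3 and to 6.56 to 30.7 CPM outside. The 8 genes of border-associated macrophages, such as Mrc1 and Pf4, summed to 114, 18.0 and 122 CPM inside and 6.32 to 17.8 CPM outside. Among the inside libraries, the one with least of both marker lists thus held the most Axl and the least C3 and Anxa1. In these lists 7 of 8 tested monocyte genes and 7 of 7 tested macrophage genes had a log2 fold change above 0, against 49.2% of all tested genes. The medians of the lists were 3.76 and 3.36. Complete separation with the inside libraries higher was found in 4 of 8 and 3 of 7, against 5.65% of all tested genes. None of the monocyte and macrophage genes passed either test. The 4 dendritic cell genes summed to 9.94 to 13.6 CPM inside and 4.27 to 11.1 CPM outside. The part of such cells in the values of Axl, C3, Anxa1, Lgals3 and Cd300lf was not tested beyond these levels.

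The remaining lists held no called gene by either test. The 7 genes of ligand carboxylation and receptor shedding (6 tested) had a median log2 fold change of -0.027. They include Adam10 and Adam17, proteases that shed TAM receptors from the cell surface, with log2 fold changes of -0.039 and 0.085 (edgeR adjusted P = 0.978 and 0.929), and Vkorc1, which regenerates the vitamin K that Gas6 and Pros1 need, with 0.38 (edgeR adjusted P = 0.661). In the engulfment machinery (12 of 14 tested, median -0.015), Elmo1, a partner of the Rac activators of the Dock family, was at 592 ± 61.0 CPM inside and 800.2 ± 75.2 CPM outside (SD, n = 3 and 4). Every inside library was lower, but the log2 fold change of -0.44 did not pass (edgeR adjusted P = 0.183, voomWithQualityWeights adjusted P = 0.0704). The related Dock2 had a log2 fold change of 0.064 (edgeR adjusted P = 0.920), and Vav3, which averaged 3.01 CPM inside against 0.152 CPM outside, overlapped between the groups (edgeR adjusted P = 0.419).

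Liver X receptors induce Mertk in macrophages, and interferon signalling induces Axl, so the genes of these routes were followed as well. Of the genes listed as liver X receptors, their partners and targets, 9 of 10 were tested, with a median log2 fold change of -0.020. The list is a choice of such genes and does not hold Apoe, whose values are given with the genes nearest to Axl. The cholesterol exporter Abca1 and the receptor Nr1h3 had log2 fold changes of 0.085 and 0.99, with edgeR adjusted P values of 0.929 and 0.725. Of the interferon receptor, STAT and SOCS genes, 9 of 10 were tested, with a median of 0.077. Stat2 was at 100.4, 188 and 116 CPM inside and 91.2, 55.4, 74.6 and 93.7 CPM outside. Its inside libraries were all higher, without passing the test (log2 fold change 0.77, SE 0.24, edgeR adjusted P = 0.268). The receptor chain Ifnar2 (0.21) and the kinase Jak1 (-0.13) overlapped between the groups, with edgeR adjusted P values of 0.655 and 0.875. Of the phosphatidylserine exposure genes, 8 of 9 were tested, with a median of -0.15. The flippase subunit Tmem30a (0.10) and the scramblase Ano6 (-0.073) had edgeR adjusted P values of 0.879 and 0.957, and Plscr1, a phospholipid scramblase gene induced by interferon, had a log2 fold change of 1.55 (edgeR adjusted P = 0.177).

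**Figure D4:**
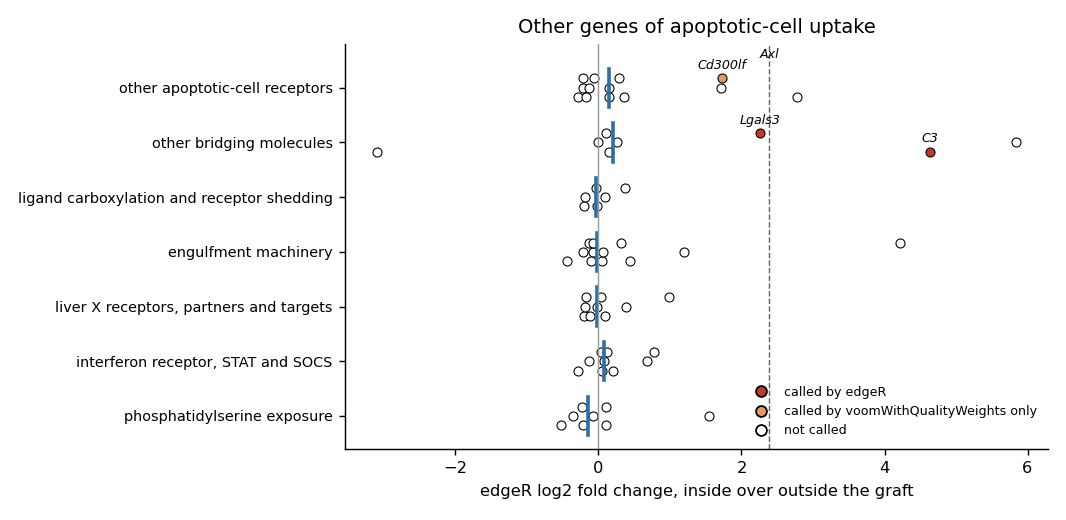
EdgeR log2 fold change (inside relative to outside) of the 65 tested genes in 7 lists of apoptotic-cell uptake, with 1 circle per gene, blue bars for the median of each list and a dashed line for Axl at 2.39. The medians lie between -0.15 and 0.20, and the named genes are the 3 that passed a test, filled red for edgeR and orange for voomWithQualityWeights alone.

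To place the receptors among all genes, profiles over the 7 libraries were compared among 8916 other genes with a mean of at least 10 CPM. The measure was the root mean square difference of mean-centred log2 CPM, with a prior count of 1 read, scaled to library size, added before conversion to CPM. Nearest to Axl were Clec7a (0.305), Apoe (0.309), Chst2 (0.354), Ch25h (0.385) and Lgals3 (0.394). Clec7a encodes the receptor dectin-1, Apoe the lipid carrier apolipoprotein E, Chst2 a sulfotransferase and Ch25h cholesterol 25-hydroxylase. All 5 were higher in every inside library than in any outside library, which follows from how they were chosen. Apoe was at 3077, 8306 and 3989 CPM inside and 1248, 1041, 627 and 868 CPM outside, and rose in both tests (log2 fold change 2.44, edgeR adjusted P = 0.0357, voomWithQualityWeights adjusted P = 0.0136). Clec7a, at 255, 399 and 154 CPM inside and 52.3, 101.7, 34.0 and 58.5 CPM outside, passed in voomWithQualityWeights alone (adjusted P = 0.0335, against 0.0682 in edgeR). The same held for Chst2 (0.0316 against 0.0589) and Ch25h (0.0367 against 0.0953). In all 5 genes, as in Axl, outside graft 3 was the lowest library and inside graft 2 the highest, which also goes back to how they were chosen. Because the choice used these same libraries, the tests of these genes are not independent of that of Axl.

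**Figure D5:**
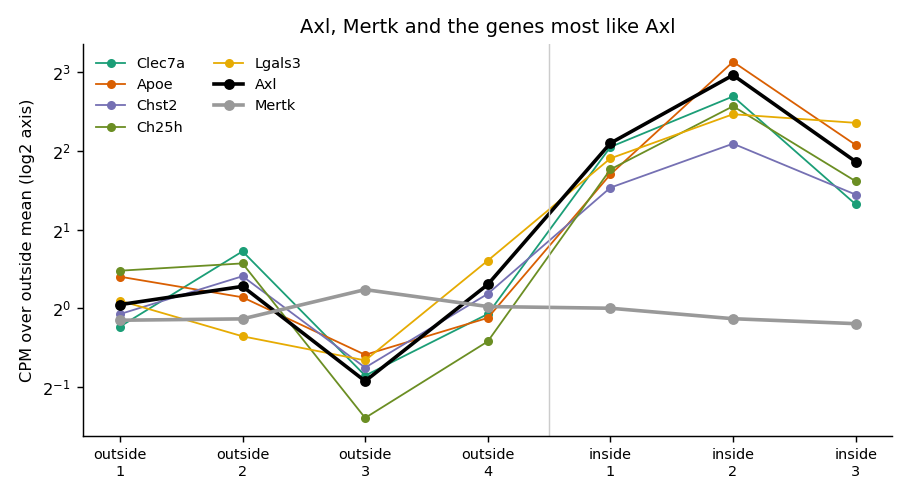
CPM in each library divided by the mean of the outside libraries (log2 axis), for Axl (black), Mertk (grey) and the 5 genes nearest to Axl (colours), with a vertical line between outside and inside libraries. Axl reaches 7.81 times the outside mean in inside graft 2, and Mertk stays near 1 throughout.

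Clec7a and Apoe belong to a list of 15 genes of plaque-associated microglia, all tested, of which 15 had a log2 fold change above 0. The median of the list was 1.37. Of the 15, 8 were higher in every inside library than in any outside library, against 5.65% of all tested genes. Of the 15, 2 rose in edgeR (Apoe and Gpnmb) and 3 in voomWithQualityWeights (Apoe, Clec7a and Itgax). Over all tested genes, 49.2% had a log2 fold change above 0, 0.0983% rose in edgeR and 0.433% rose in voomWithQualityWeights. The list summed to 25834, 39334 and 20593 CPM in inside graft 1, 2 and 3, the order of Axl, and to 13786 to 19890 CPM outside, with the lowest sum in outside graft 3. The 12 microglia markers all had a log2 fold change below 0, with a median of -0.20, and 0 passed either test. Of the 12, 5 were lower in every inside library than in any outside library, against 5.02% of all tested genes. Among the genes nearest to Mertk were Lpin2 (0.0456), Xbp1 (0.0539), Hgs (0.0599) and Copg2 (0.0601). Their log2 fold changes lay between -0.16 and -0.074, and 2306 genes were within 0.2 of Mertk where 0 were within 0.2 of Axl, so the likeness to Mertk singles out no gene.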

How the data were processed

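Bulk RNA-seq counts of 7 libraries were used, grouped by the labels. Per the file headers and the paper's methods, the authors made cDNA with a SMART-Seq kit, aligned single reads with STAR 2.7.2a to GRCm38.p6 and deposited unnormalized counts for each gene name, made with featureCounts 1.6.2 (GENCODE M21), without strand, so antisense reads over an exon are included, and without reads of several alignments. Reads carry no molecular identifiers, so counting precision is overstated.

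Counts were filtered (filterByExpr, 15257 genes kept), scaled by TMM and tested with edgeR 4.0.16 (glmQLFit and glmQLFTest) and, as in the study, limma 3.58.1 voomWithQualityWeights, with Benjamini-Hochberg adjustment over all genes. DESeq2 1.42.0 was an alternative, beside other filters, normalizations, a replicate block and each library left out. CPM uses TMM-scaled totals. TPM uses the deposited exon lengths. Permutation tests used SciPy 1.17.1. Scripts were tested on simulated data.

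Members and gene lists were chosen with earlier results of these data known. Beside the members, each list's 2 most abundant genes, its called genes and its largest change (mean of at least 1 CPM) were named, with the 5 genes most like Axl and Mertk. Of the genes this rule names, 2 are not reported here. Promoter windows are from RefSeq (6 of 6 members matched), with GRCm38.p6 coordinates.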

Additional observations from a re-analysis of the deposited data

Results flagged for a closer look

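Among 26 groups of 4 libraries examined, 4 held a library far from the rest by Dixon's criterion, where chance gives about 1 in 20, or 1.3. The log2 ratio of Axl to Mertk was -5.28 in outside graft 3 and -3.92 to -3.70 in the other outside libraries. Tyro3 was at 0.107 CPM, from 2 reads, in outside graft 1 and at 0 in the other outside libraries. With the others all at 0, any read in this library would have been flagged, so nothing is drawn from the Tyro3 flag. In outside graft 1 the 8 neuron genes summed to 10.5 CPM, against 4.31 to 5.35 CPM in the other outside libraries. The 7 oligodendrocyte genes summed to 155 CPM there, against 163.9 to 165.5 CPM.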

How the results depend on the processing

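The count of genes called by edgeR (15) was 366 with no filter, 92 when all libraries had to hold 10 counts, 420 with the DESeq2 Wald test, 75 with voomWithQualityWeights and 0 at an adjusted P below 0.01. It ran from 0 (without inside graft 3 or outside graft 4) to 73 (without inside graft 2) with each library left out, with 4 without outside graft 2. The voomWithQualityWeights count (75) was 3 at 0.01 and 1 to 207 with each library left out, with 1 without outside graft 3 or 4 and 207 without inside graft 2. The causes were not tested.

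The log2 fold change of Axl was 1.99 to 2.60 with each library left out (edgeR adjusted P 0.0266 to 0.0908, 5 of 7 not below 0.05) and 2.34 to 2.51 under the other 9 alternatives, all of which passed. With voomWithQualityWeights it was 2.06 to 2.69, with the call lost without outside graft 3 (adjusted P = 0.0945) or outside graft 4 (adjusted P = 0.0756). Mertk was between -0.16 and -0.020 under the alternatives to the edgeR test and between -0.22 and -0.025 under those to voomWithQualityWeights, and Gas6, varied from edgeR, between 0.060 and 0.23. Neither passed in these runs. With each library left out, Mfge8 ran from -0.13 (without inside graft 2) to 0.46 and Pros1 from -0.083 (without inside graft 1) to 0.14, with -0.036 without outside graft 1, and these 3 negative values turned the sign. The difference of the Axl to Mertk ratio was 2.12 to 2.67 with each library left out, with an exact permutation P of 0.1 to 0.133, the smallest that those splits allow.

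Replicate numbers 1 to 3 occur in both groups. Deviations of same-numbered libraries correlated at -0.043, 0.090 and 0.067, and 4 of 6 libraries correlated best with their own number. These values do not decide whether the libraries are paired, and whether same-numbered libraries share a mouse is not known. The main tests did not treat them as paired. On the 6 libraries without outside graft 4, adding the replicate block took the genes called from 0 to 43 in edgeR and from 1 to 265 in voomWithQualityWeights. The log2 fold change of Axl went from 2.51 (SE 0.36, adjusted P = 0.0908) to 2.51 (SE 0.18, adjusted P = 0.0056) in edgeR and from 2.58 (adjusted P = 0.0756) to 2.61 (adjusted P = 1.13e-05) in voomWithQualityWeights. The Axl to Mertk ratio differed by 2.61 with and without the block, an equality fixed by arithmetic on these 6 libraries.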
